A study of Mus musculus with 6 samples.

Results

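The 10 genes described here are 7 zinc transporters (Slc39a6, Slc39a10, Slc39a7, Slc39a8, Slc30a1, Slc30a5 and Slc30a9), the metallothioneins Mt1 and Mt2, and the zinc-sensing transcription factor Mtf1, taken by symbol from the 24254 gene rows of the deposited table, which held all 10. They were followed in mouse eggs arrested at metaphase II. The 6 libraries fall into 3 from eggs matured in vitro (IVM) and 3 from eggs matured in vivo (IVO), and the labels give no strain, age, hormone treatment or genotype. Whether replicates came from separate animals or collections is not given in the sources used here, and the spread behind every p-value is that between these libraries, which may be technical. Levels are FPKM, fragments scaled by transcript length and by the size of the library, so levels of different genes can be set side by side.

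Zinc enters the cytosol through Slc39 (ZIP) proteins and leaves it, to the outside or into organelles, through Slc30 (ZnT) proteins. Metallothioneins are small cysteine-rich proteins that bind surplus zinc, and Mtf1 switches on their genes and Slc30a1 when free zinc rises, by binding metal response elements in their promoters. The mouse oocyte takes up zinc during meiotic maturation, needs it to hold the metaphase II arrest, and expels part of it at fertilization. Slc39a6 and Slc39a10 are the importers known for this uptake.

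The promoters of the metallothioneins and of Slc30a1, the textbook targets of Mtf1, are shown because the levels of these 3 genes and of Mtf1 are compared below. Sequences are from RefSeq, GRCm38.p6, from 250 bases before to 30 after the transcript start, on the plus strand, and capitals mark matches to the core of the metal response element, TGCACNC or TGCGCNC, searched on both strands (N is any base). They lie at chr8:94178839-94179118 (Mt1), chr8:94172368-94172647 (Mt2) and chr1:191906531-191906810 (Slc30a1).
Mt1: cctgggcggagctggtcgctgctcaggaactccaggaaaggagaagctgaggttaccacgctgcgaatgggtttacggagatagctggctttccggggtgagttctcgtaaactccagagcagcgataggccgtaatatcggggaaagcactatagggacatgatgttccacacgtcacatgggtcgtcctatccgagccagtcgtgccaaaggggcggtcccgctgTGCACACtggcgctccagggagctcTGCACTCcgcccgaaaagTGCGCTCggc
Mt2: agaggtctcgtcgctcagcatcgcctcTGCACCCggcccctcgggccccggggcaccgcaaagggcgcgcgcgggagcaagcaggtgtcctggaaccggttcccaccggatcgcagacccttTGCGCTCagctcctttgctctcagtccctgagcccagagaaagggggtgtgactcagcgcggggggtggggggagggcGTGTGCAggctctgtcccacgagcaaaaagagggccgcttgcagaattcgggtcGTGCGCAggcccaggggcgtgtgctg
Slc30a1: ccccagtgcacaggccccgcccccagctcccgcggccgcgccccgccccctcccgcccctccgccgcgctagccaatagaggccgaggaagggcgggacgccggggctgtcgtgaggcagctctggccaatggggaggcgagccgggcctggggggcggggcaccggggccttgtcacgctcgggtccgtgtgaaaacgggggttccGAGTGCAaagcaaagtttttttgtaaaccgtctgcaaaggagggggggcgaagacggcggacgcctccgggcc

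Mt2 had 4 matches, Mt1 had 3 and Slc30a1 had 1, and no match overlapped another. Among all 32851 promoter windows of this length, 0.405% had at least 4 matches, 1.73% at least 3 and 24.1% at least 1. The promoter table held 9 of the 10 genes in 11 windows, of which 5 had a match; the others were 1 window of Slc39a8 and that of Slc30a5, with 1 match each. The windows of Mtf1, Slc39a7, Slc30a9 and both starts of Slc39a10 held none. A match is a run of letters and not a measured binding site. Each window is set by a listed RefSeq start, so matches outside the windows, or near another start of the gene, were not counted.

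**Figure D1:**
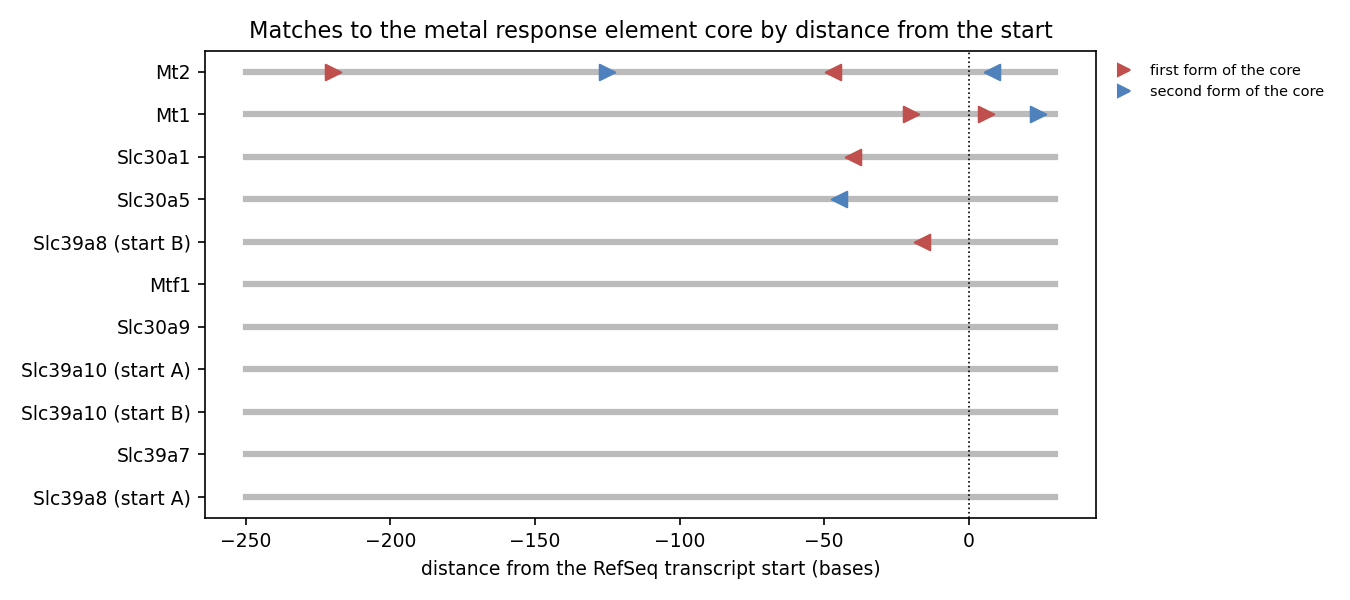
Positions of matches to the metal response element core in each promoter window (grey line, 250 bases before to 30 after the RefSeq start, in bases from the start). Arrowheads point along the strand, red for TGCACNC and blue for TGCGCNC; Mt2 with 4 and Mt1 with 3 hold the most among the windows drawn.

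Slc39a10 was by far the most abundant of the 10 transcripts, and the metallothioneins were among the least. Slc39a10 ranked 99 of 24254 genes by mean FPKM in IVM and 124 in IVO. In IVM it was followed by Slc30a5, Slc39a6, Mtf1 and Slc30a1, each above the next with no overlap over the 3 libraries. In IVO the order after Slc39a10 was Slc30a5, Mtf1, Slc30a1 and Slc39a6, where Slc30a5 and Mtf1 overlapped. Slc39a6 thus took place 3 in IVM and place 5 in IVO. Slc39a7, Slc30a9, Slc39a8 and Mt1 came last but for Mt2, at mean levels of 0.213 to 1.16 FPKM, and neighbours among these 4 overlapped in both groups.

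**Figure D2:**
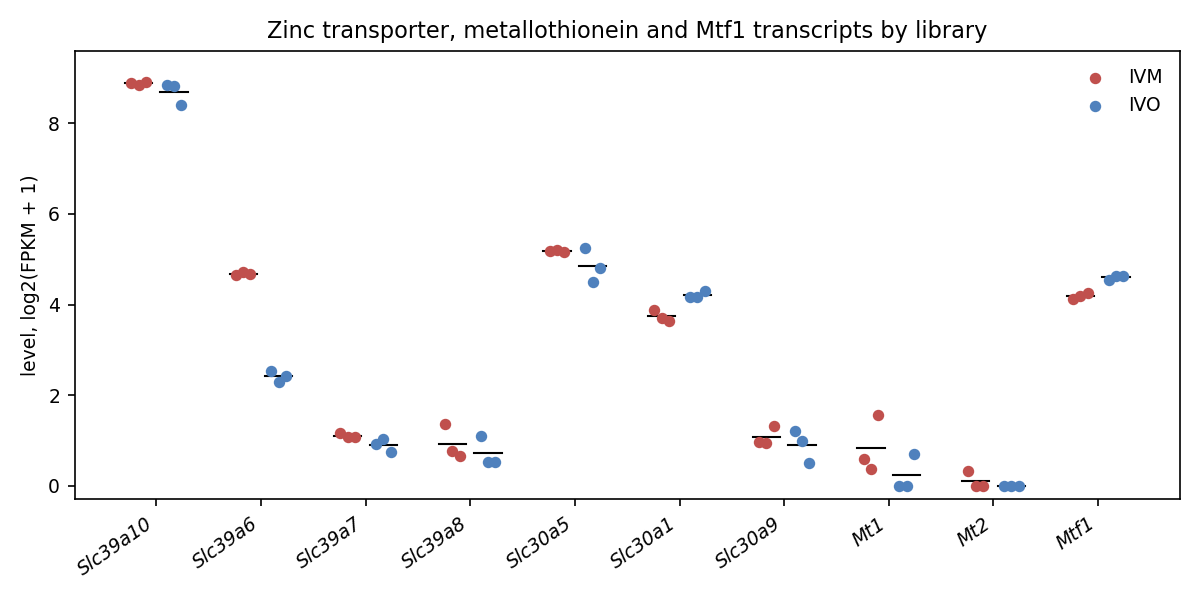
Level of each gene in each library, as log2(FPKM + 1); points are libraries (red IVM, blue IVO, 3 each) and black bars their means. Slc39a6 separates most widely between the groups, while Slc39a10 lies above every other gene in all 6 libraries and Mt2 is at 0 in 5 of them.

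For the comparison of maturation in culture with maturation in the animal, the question of the series title, 7 of the 10 genes reached a mean of 1 FPKM over the 6 libraries and were tested. Slc39a6 rose in IVM, Slc30a1 and Mtf1 fell, and the other 4 did not pass the test (limma on log2(FPKM + 1), p adjusted by the Benjamini-Hochberg method, BH, under 0.05). Calls were frequent in these data: of 7746 tested genes 41.0% passed, 20.6% as higher and 20.4% as lower in IVM, so 3 of 7 is near the share of all genes. The 1595 higher and 1583 lower genes became 1975 and 1168 after rescaling all libraries to a common sum, and 1345 and 2066 under upper quartile scaling. The median log2 difference of the 7 was 0.19, against -0.02 over all tested genes. Slc39a7 and Slc30a9 passed the filter only through their IVM mean, and neither was called.

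Among the importers, Slc39a6, a transporter of the plasma membrane (GRCm38 chromosome 18, 24579881 to 24603817, ENSMUSG00000024270.11; all gene coordinates are of this build), had 24.1, 25.5 and 24.5 FPKM in IVM replicates 1 to 3, and 4.79, 3.87 and 4.39 in IVO. The 3 IVM libraries were nearly alike and lay far above the 3 IVO libraries. Every IVM library lay above every IVO library for 25.8% of tested genes. The means were 24.7 ± 0.719 and 4.35 ± 0.462 (SD, n = 3), a ratio of 5.68, with a log2 difference of 2.27 (SE 0.132, 95% interval 1.97 to 2.57, limma, BH-adjusted p = 9.49e-06). Only 121 of the 7746 tested genes had a larger absolute difference. The call held in all 19 alternative settings, with log2 differences of 2.15 to 2.51. Elp2, on the opposite strand, overlaps the gene over 952 bases, and without knowledge of strand its reads cannot be told apart there; its level was 1.82 ± 0.622 FPKM in IVM against 0.0917 ± 0.0809 in IVO (SD, n = 3).

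Slc39a10, the partner of Slc39a6 in the plasma membrane (chromosome 1, 46807544 to 46892852), had 469.9, 461.7 and 481.7 FPKM in IVM and 458.9, 451.1 and 336.8 in IVO. The groups did not overlap, as for 53.5% of tested genes in either direction, but the lowest IVM library was only just above the highest IVO library, and IVO replicate 3 stood below the rest. Of all tested genes, 25.8% had every IVM library above every IVO library. The log2 difference was 0.19 (SE 0.115, 95% interval -0.067 to 0.46, limma, BH-adjusted p = 0.211). It passed when each library was rescaled to the same sum (log2 difference 0.33, limma adjusted p = 0.0428) and under quantile normalization (0.33, limma adjusted p = 0.0451), and was 0.05 without IVO replicate 3.

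The remaining importers were near the limit of the filter. Slc39a7, which releases zinc from the endoplasmic reticulum (chromosome 17, 34028269 to 34031682), had 1.23, 1.12 and 1.11 FPKM in IVM and 0.908, 1.05 and 0.677 in IVO (log2 difference 0.20, 95% interval -0.22 to 0.63, limma, BH-adjusted p = 0.421). Its groups did not overlap, by a small margin, with every IVM library higher as for 25.8% of tested genes. Slc39a8, which also carries manganese and cadmium (chromosome 3, 135825279 to 135888572), had 1.56, 0.698 and 0.566 FPKM in IVM and 1.16, 0.438 and 0.432 in IVO, with overlapping groups and replicate 1 highest in each. It was below the filter, and without a filter its log2 difference was 0.21 (SE 0.270, limma, BH-adjusted p = 0.645).

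The family as a whole was dominated by Slc39a10. Of the summed FPKM of the 14 Slc39a genes, it held 89.5 to 90.3% in IVM and 91.0 to 93.0% in IVO. The share of Slc39a6 was 4.59 to 4.94% in IVM and 0.797 to 1.19% in IVO. Slc39a9, a Golgi transporter, held 3.69 to 4.38% and 4.91 to 6.29%, so in IVM libraries Slc39a6 was above Slc39a9 and in IVO libraries below it. These shares are taken within a library and do not depend on scaling between libraries.

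**Figure D3:**
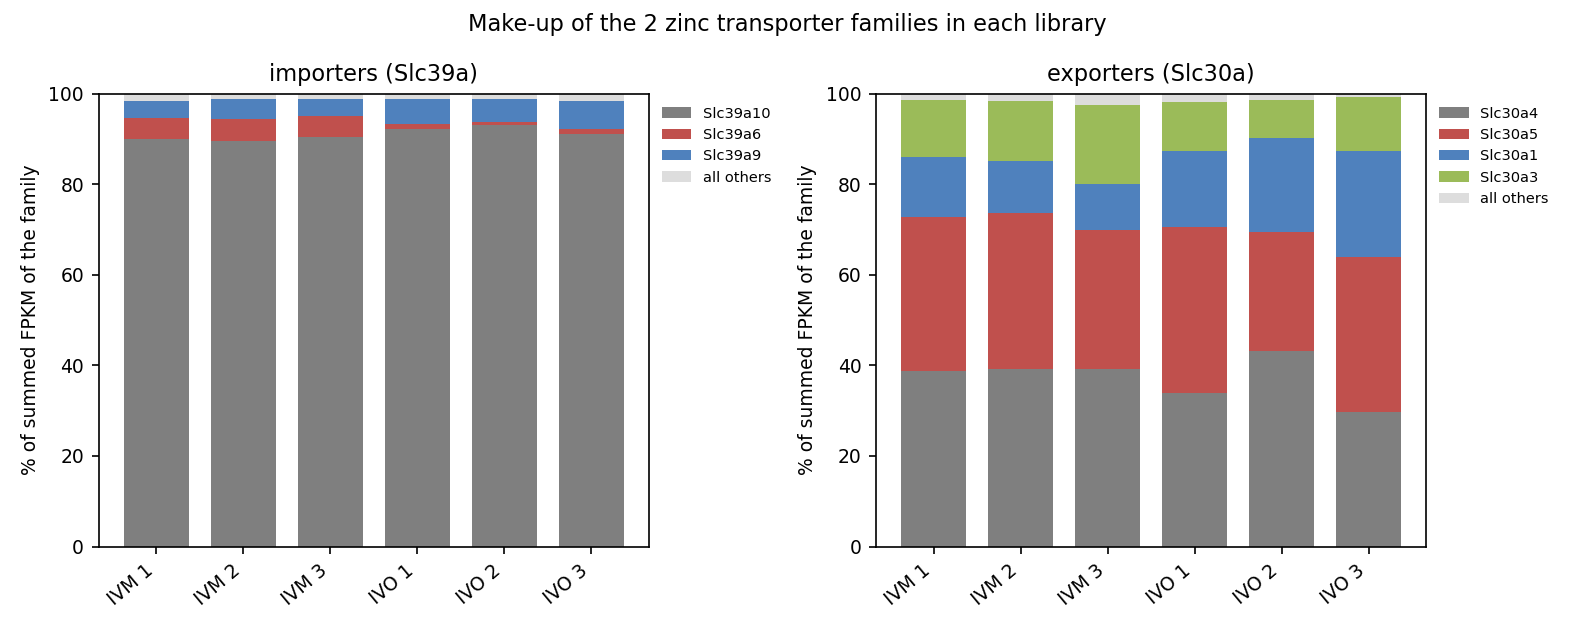
Share of each gene in the summed FPKM of the Slc39a family (left) and the Slc30a family (right), in percent, for each library. Slc39a10 fills 89.5 to 93.0% of the left bars, with the Slc39a6 segment wider in the 3 IVM libraries; on the right the Slc30a1 segment is narrower in IVM (10.2 to 13.3%) than in IVO (16.8 to 23.3%).

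Slc30a1, the exporter of the plasma membrane (chromosome 1, 191906767 to 191913247, ENSMUSG00000037434.7), had 13.8, 11.99 and 11.5 FPKM in IVM and 16.8, 16.97 and 18.5 in IVO. Every IVM library was below every IVO library, as for 27.7% of tested genes. The means were 12.4 ± 1.21 and 17.4 ± 0.937 (SD, n = 3), with a log2 difference of -0.46 (SE 0.126, 95% interval -0.74 to -0.18, limma, BH-adjusted p = 0.0172). The call was lost after rescaling all libraries to a common sum (-0.33, limma adjusted p = 0.0603), without IVM replicate 2 (-0.44, adjusted p = 0.0721) and without IVM replicate 3 (-0.41, adjusted p = 0.0603). That rescaling moved the median of all tested genes by 0.12, close to the 0.13 by which Slc30a1 moved. Slc30a1 held 10.2 to 13.3% of the summed FPKM of the 10 Slc30a genes in IVM and 16.8 to 23.3% in IVO. That sum was itself higher in IVM, at 104.0 to 113.1 FPKM against 79.5 to 100.0 in IVO. The share therefore reflects the sum as well as the level of Slc30a1.

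Slc30a5, which loads zinc into the secretory pathway (chromosome 13, 100802648 to 100833427), had 35.4, 35.9 and 34.7 FPKM in IVM and 36.7, 21.6 and 27.2 in IVO. IVO replicate 1 was the highest of all 6 libraries, so the groups overlapped. The log2 difference was 0.33 (SE 0.171, 95% interval -0.056 to 0.72, limma, BH-adjusted p = 0.153), and without IVO replicate 1 it was 0.53 and passed (limma adjusted p = 0.0131). Slc30a9, a transporter of mitochondria (chromosome 5, 67306955 to 67358443), had 0.943, 0.920 and 1.48 FPKM in IVM and 1.31, 0.990 and 0.427 in IVO, with overlapping groups (log2 difference 0.17, 95% interval -0.38 to 0.71, limma, BH-adjusted p = 0.617).

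Metallothionein transcripts were at or near 0 FPKM in both groups. Mt1 (chromosome 8, 94179082 to 94180327) had 0.511, 0.295 and 1.94 FPKM in IVM and was listed at 0, 0 and 0.638 in IVO. The IVM mean rested mainly on replicate 3, and the groups overlapped. Mt2 (chromosome 8, 94172664 to 94173568), which lies 5513 bases away, was listed at 0.245 FPKM in IVM replicate 1 and at 0 in the other 5 libraries. Both were below the filter; without one, neither passed (limma, BH-adjusted p = 0.3002 for Mt1 and 0.484 for Mt2). A listed 0 can be a failed estimate, and depth in reads is unknown, so no limit of detection can be given. The brain form Mt3 was listed at 0 in all libraries, and Mt4, a form of stratified epithelia, was listed above 0 only in IVM replicate 3, at 1.20 FPKM.

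Mtf1, the transcription factor (chromosome 4, 124802104 to 124849800, ENSMUSG00000028890.13), had 16.5, 17.1 and 18.03 FPKM in IVM and 22.4, 23.8 and 23.6 in IVO. The libraries of each group lay close together. Every IVM library was below every IVO library, as for 27.7% of tested genes. The means were 17.2 ± 0.770 and 23.3 ± 0.774 (SD, n = 3), with a log2 difference of -0.42 (SE 0.108, 95% interval -0.66 to -0.17, limma, BH-adjusted p = 0.0138). The call was lost after rescaling all libraries to a common sum (-0.28, limma adjusted p = 0.0700), without IVM replicate 1 (-0.39, adjusted p = 0.0632) and without IVM replicate 2 (-0.41, adjusted p = 0.0580). The end of Mtf1 overlaps 1110065P20Rik on the opposite strand over 721 bases, at 5.37 ± 1.07 FPKM in IVM against 3.20 ± 0.589 in IVO (SD, n = 3). The deposited locus of Mtf1 runs on to 124850730 and reaches Yrdc on the same strand, which starts at 124850679. Yrdc was at 26.1 ± 2.12 FPKM in IVM against 17.99 ± 4.50 in IVO (SD, n = 3). The order of both neighbours was opposite to that of Mtf1, and what their reads add to it was not tested.

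In the authors' deposited table the q-value for IVM against IVO was 0.000248 for Slc39a6, 0.00469 for Slc30a1 and 0.00409 for Mtf1. The authors' deposited table gave 0.0737 for Slc30a5 and 0.188 for Slc39a10, and at a q-value under 0.05 it called the same 3 members as limma and 44.7% of the tested genes. Between single libraries of one group, the smallest q-value of any member in the authors' deposited table was 0.819, for Slc30a5.

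Other members of the transporter families were taken from lists. Of 10 other Slc39a genes 2 were tested and none passed: Slc39a9 was at 20.95 ± 1.66 FPKM in IVM against 25.02 ± 2.60 in IVO (SD, n = 3; log2 difference -0.24, limma, BH-adjusted p = 0.142), and Slc39a1 at 1.40 ± 0.394 and 0.893 ± 0.732. At an unadjusted p under 0.05 the number was also 0. Of 7 other Slc30a genes 2 were tested, and both were higher in IVM. Over all tested genes 20.6% were called higher and 41.0% in either direction, and 2 tested genes in each list are too few to set against these shares. Slc30a3, an exporter of synaptic vesicles, was at 15.5 ± 3.65 and 8.98 ± 2.06 (SD, n = 3; log2 difference 0.73, limma, BH-adjusted p = 0.0205). Its call was lost without a filter (adjusted p = 0.0557), without IVM replicate 3 (0.56, adjusted p = 0.0821) and without IVO replicate 2 (0.55, adjusted p = 0.0628). Slc30a4, a vesicular exporter, was at 41.8 ± 2.25 and 30.9 ± 6.31 (SD, n = 3; log2 difference 0.44, limma, BH-adjusted p = 0.0440), and its call was lost in 8 of 19 settings, among them the omission of IVM replicate 1, 2 or 3 (limma adjusted p = 0.0879, 0.0958 and 0.136). Thus the exporter genes called went both ways, with Slc30a1 lower and Slc30a3 and Slc30a4 higher. Slc30a8, Slc30a10 and Slc39a2 were listed at 0 in every library.

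**Figure D4:**
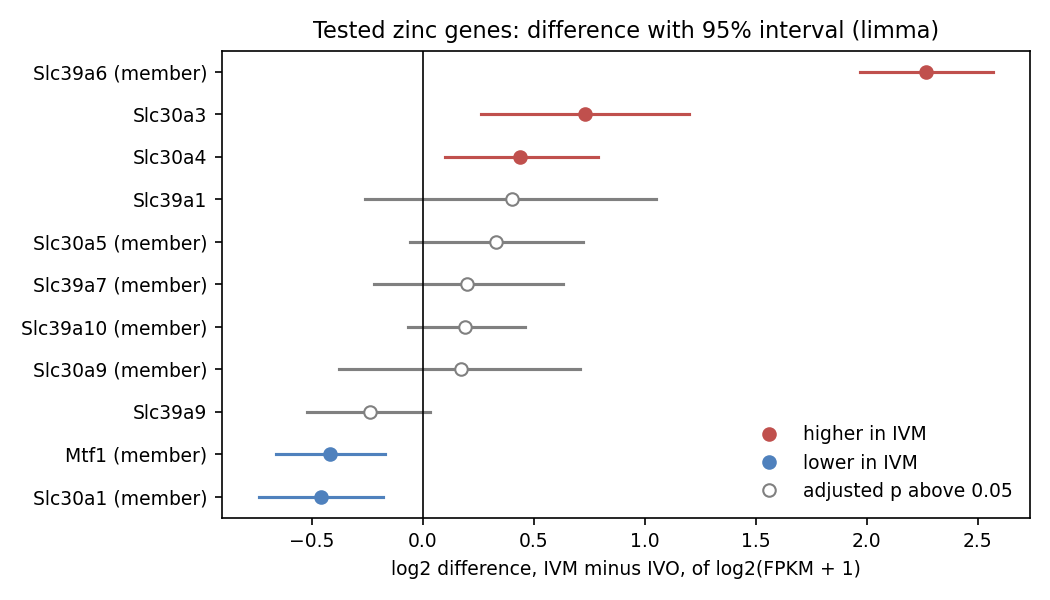
Log2 difference (IVM minus IVO, on the log2(FPKM + 1) scale) of the 11 tested genes of the transporter families and Mtf1, with the 95% interval from limma; red is called higher, blue called lower, open not called. Slc39a6 lies at 2.27, while the other 10 lie between -0.46 and 0.73.

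A list of further candidate targets of Mtf1 was set beside Slc30a1. Of 8 symbols 7 were in the table and 4 were tested, and none passed (1 at an unadjusted p under 0.05, Plac8). Of all tested genes 41.0% passed in either direction, and 4 genes are too few to set against that share. The median log2 difference of the 4 was -0.13 (all tested genes, -0.02). Gclc, a glutathione synthesis gene, was at 9.15 ± 0.686 FPKM in IVM against 9.96 ± 0.991 in IVO, the selenoprotein gene Sepw1 at 15.8 ± 4.11 and 12.1 ± 2.47, Csrp1 at 7.65 ± 0.820 and 8.53 ± 0.496, and Plac8 at 2.11 ± 1.61 and 5.18 ± 2.98 (SD, n = 3). The adjusted p of Plac8 was 0.0733 (limma), and it passed in 5 of 18 alternatives, among them without IVM replicate 3 (log2 difference -1.40, adjusted p = 0.0258).

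Of 21 genes of iron and copper handling, listed for comparison with zinc, 10 were tested, 2 rose and 2 fell. That is near the 41.0% of all tested genes that passed in either direction. Their median log2 difference was 0.0748 (all tested genes, -0.02). Ftl1, the ferritin light chain, was at 32.3 ± 2.78 FPKM in IVM against 16.8 ± 3.22 in IVO, and the transferrin receptor gene Tfrc at 2.06 ± 0.704 and 0.710 ± 0.152 (SD, n = 3; limma, BH-adjusted p = 0.00164 and 0.0170). Ncoa4, the receptor for ferritin degradation, was at 58.6 ± 2.49 and 88.9 ± 9.57, and the copper importer gene Slc31a1 at 3.20 ± 1.35 and 6.95 ± 0.734 (SD, n = 3; limma, BH-adjusted p = 0.00182 and 0.0128). Tfrc reached the filter only through its IVM mean. Its call was lost without a filter (limma adjusted p = 0.0518), under quantile normalization (log2 difference 0.57, adjusted p = 0.0716) and without IVM replicate 2 (0.64, adjusted p = 0.0869).

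In the 6 libraries, summed FPKM was 353400 to 365000 in IVM and 394200 to 402100 in IVO, and the steps between low values gave the other libraries relative depths of 0.779 to 0.908, with IVM replicate 1 as 1. All 12 oocyte markers had a row in the table, of which Figla was listed at 0 in the 3 IVO libraries. Of the 11 tested, 9 were higher and 1 lower in IVM, beside 20.6% and 20.4% of all tested genes. The median log2 difference of the tested oocyte markers was 1.89, against -0.02 over all tested genes and 2.27 for Slc39a6. The single markers were far from alike, with log2 differences from -0.36 to 3.61. Of 22 cumulus and granulosa markers, genes of the somatic cells of the follicle, 11 were tested and Areg was at 0. In IVM 2 were higher and 3 lower, near the 41.0% of all tested genes that passed in either direction. The 3 lower ones, Tnfaip6, Inhba and Sdc4, reached the filter only through their IVO mean. The 2 higher ones were Inha and Kitl. Inha was at 16.9 ± 9.39 FPKM in IVM against 3.90 ± 2.84 in IVO, and Kitl at 6.19 ± 0.792 and 3.92 ± 0.460 (SD, n = 3). The summed FPKM of all 22 cumulus and granulosa markers was 37.2 to 66.4 in IVM and 34.2 to 84.8 in IVO. It was highest in IVO replicate 2, which held the lowest Slc39a6, Slc30a5 and Slc30a3 and the highest Mtf1 of the 6 libraries. IVO replicate 3, with a marker sum of 36.8, held the lowest Slc39a10 and Slc30a4 and the highest Slc30a1. The lowest marker sum, 34.2, was that of IVO replicate 1. The part of these markers in the levels of the zinc genes was not tested. No blood or immune marker reached the filter (summed FPKM 0.678 to 2.76 in IVM and 0.713 to 3.54 in IVO). In bulk libraries, fewer cells of a type and less RNA per cell cannot be told apart.

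**Figure D5:**
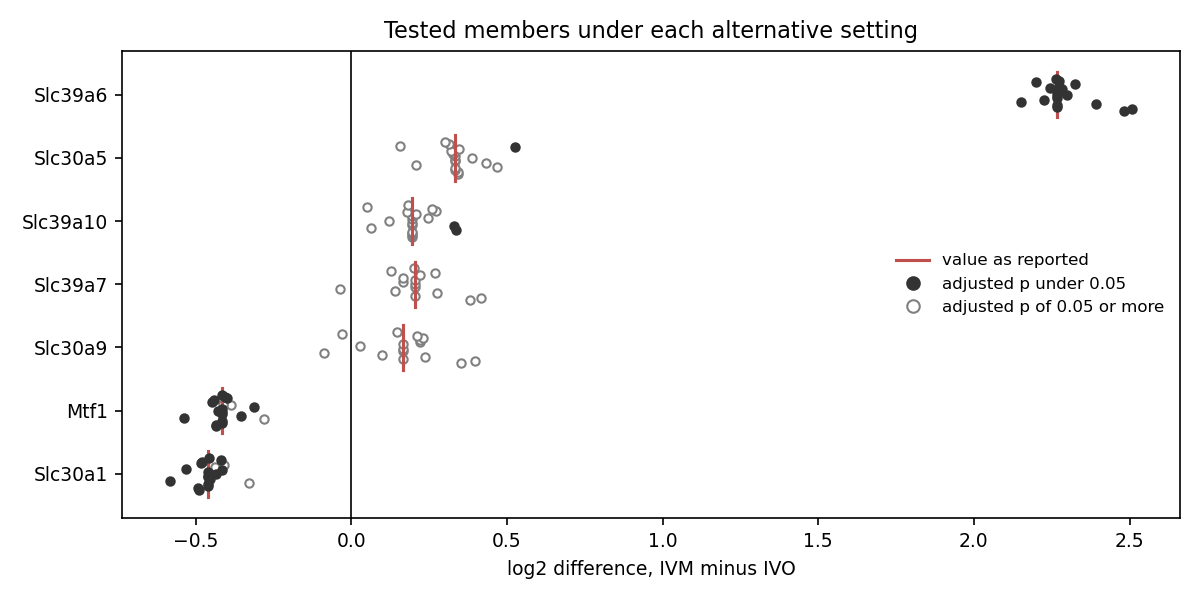
Log2 difference (IVM minus IVO) of the 7 tested members under every alternative setting; red bars are the values as reported, filled points passed at an adjusted p under 0.05 and open points did not. Slc39a6 stays filled from 2.15 to 2.51, while Slc30a1 and Mtf1 stay below 0 with 3 open points each.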

How the data were processed

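The authors deposited FPKM for each gene and library and a p-value and q-value for IVM against IVO, per the file headers; the sources used here give no aligner, counting tool, annotation, strandedness or scaling between libraries. The build is mm9 per the submitters' processing notes, but the deposited loci of all 10 members overlap the gene of that name in GRCm38, so coordinates are those of GENCODE release M21 (GRCm38). FPKM values are not counts, so no count test was run. The authors' log2 ratios were not used, because part of that deposited column is spreadsheet error text.

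The 7746 genes whose FPKM averaged 1 or more over the libraries entered a two-sided limma fit (version 3.58.1, R 4.3.3) of log2(FPKM + 1), with a variance prior that follows intensity and Benjamini-Hochberg adjustment over all of them; this scale understates the change of low genes. The procedure was also run on simulated data. There a smaller share of genes changed than was called here, and by more than Slc30a1 and Mtf1 did. That run therefore says nothing about calls of their size. Alternatives covered the pseudocount (0.1, 0.01), filter, scaling, variance model, library weights, replicate block, transcript length (known for 95.8% of tested genes), thresholds, each library left out and the authors' q-values. Named genes are the 10 members, other Slc39a, Slc30a, metallothionein and candidate Mtf1 target genes that passed this filter, and called iron and copper genes. Of the markers, the called cumulus and granulosa genes and genes listed at 0 are named. Slc39a2, Slc30a8, Slc30a10, Mt3 and Mt4, as well as genes that overlap a member, were named after their values were seen. The members and lists were chosen with earlier results of these data known. Tables were made with Python 3.11.15.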

Additional observations from a re-analysis of the deposited data

How the results depend on the processing

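The direction and call of Slc39a6 held in all 19 alternatives. One member was called higher and 2 lower as reported. Rescaling every library to one common sum gave 2 and 0, the second higher member being Slc39a10, and under quantile normalization 2 were higher for the same reason. At a threshold of 0.01, 0 members were called lower, while Slc39a6 was still called. Leaving out one library gave 1 to 2 members higher and 0 to 2 lower. Rescaling to the same sum moved the median log2 difference of all tested genes by 0.12 and upper quartile scaling by -0.11. Signs turned for genes that were never called: Slc39a7 under quantile normalization (-0.037), Slc30a9 there (-0.088) and without IVO replicate 3 (-0.030; up to 0.23 with another library left out), and Gclc with each library rescaled (0.019). Over all genes, 1595 were higher and 1583 lower; with a filter at a mean FPKM of 5 the numbers were 835 and 1392, on a common sum 1975 and 1168, under upper quartile scaling 1345 and 2066, and at a threshold of 0.01 1019 and 1009. The numbers of replicates do not mark a shared origin in the labels. Deviations of same-numbered libraries from their group means correlated at 0.0777, 0.0599 and 0.0900, the best match for every library, and with the replicate block 1626 genes were higher and 1558 lower, with 1 and 2 members; among genes named, Slc30a4 lost its call (adjusted p = 0.05005). Mt1, Mt2 and Slc39a8 could be fitted only without a filter. Depth in reads is unknown, which limits what can be said of genes near 0.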
